A study of Mus musculus with 3 samples.

Results

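The aminoacyl-tRNA synthetase genes were a list of 35 protein-coding genes, 19 that encode enzymes of the cytosol and 16 that encode enzymes of the mitochondrion, out of the 21951 protein-coding genes of the mouse annotation. The list was fixed by function and compartment, but the family was chosen by its NF-Y-ChIP and H3K4me3-ChIP peaks near TSSs, which were known beforehand. The peak counts and peak heights of the members are therefore given as a description and without a test. Gars and Kars each encode both a cytosolic and a mitochondrial form of their enzyme and were counted as cytosolic.

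The data were ChIP-seq peaks of mouse cerebral cortices at E13.5 (embryonic stage), without any genetic or drug treatment given in the labels. There were 3 libraries, 1 each of input chromatin, NF-Y-ChIP with an antibody against the NF-YC subunit, and H3K4me3-ChIP. Peak lists of the 2 antibodies were analysed, 733 peaks for NF-Y-ChIP and 18816 for H3K4me3-ChIP, and the input was not analysed here. A cortex holds several cell types, so a peak is a sum over progenitors, neurons and other cells, and with 1 library per antibody neither an error between replicates nor a p-value between samples is available. Read counts are not part of the peak lists, so depth is unknown, and a promoter without a listed peak may still be bound below the limit of detection. As a check of the tissue, H3K4me3-ChIP peaks lay at the starts of the cortical progenitor genes Sox2, Pax6, Eomes and Emx1 and at 0 of 4 genes of other tissues (Alb, Myod1, Ins2, Cdx2).

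Aminoacyl-tRNA synthetases join each amino acid to its tRNA, the step that fixes the meaning of the codons in translation. Nuclear genes encode both sets of enzymes, and the mitochondrial set is imported to translate the few proteins of the respiratory chain that mitochondrial DNA encodes. In the cytosol, Eprs charges both glutamate and proline, and phenylalanine needs the 2 subunits Farsa and Farsb, while mitochondria use separate Ears2 and Pars2 enzymes and the single-chain Fars2. Mitochondria have no separate glutamine enzyme and make their glutaminyl-tRNA by an amidotransferase built from Gatb, Gatc and Qrsl1. NF-Y is a trimer of NF-YA, NF-YB and NF-YC that binds the CCAAT box, mostly close to transcription start sites (TSSs), and H3K4me3 is a histone mark of active promoters. Several synthetase genes are also known targets of ATF4, the transcription factor of the amino acid response, which binds an amino acid response element together with a C/EBP partner.

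NF-Y occupied the start of Iars, the gene of the cytosolic isoleucyl-tRNA synthetase, and of no other member. A gene was counted as occupied when it had a promoter summit, the summit of an NF-Y-ChIP peak no more than 1 kb from any of its TSSs. By this rule 3.17% of all protein-coding genes were occupied, so 1 of 35 is near the background. The Iars peak was among the strongest of the whole list. H3K4me3, in contrast, marked the starts of all 35 genes, against 62.7% of all protein-coding genes, at similar levels in both compartments. CCAAT boxes were present at 15 of the 35 promoters (42.9%), against 29.0% of promoters with an H3K4me3-ChIP peak, a difference that rested on the choice of TSS. Most members with a box had no promoter summit. This was also the common state, since 12.6% of all promoters with an H3K4me3-ChIP peak and a box had one. The sequences that show this are given first, on the strand of each gene in the GRCm38 assembly (RefSeq), with CCAAT, or ATTGG where the box is on the opposite strand, in capitals.

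The run upstream of Iars and its second box are shown because they lie under the only NF-Y-ChIP peak of the members. Their positions are chr13:49681980-49682096 and chr13:49682087-49682111, and the gene is on the plus strand.
Iars, upstream run: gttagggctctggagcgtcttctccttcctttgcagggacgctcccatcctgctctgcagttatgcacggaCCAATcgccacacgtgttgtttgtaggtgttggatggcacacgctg
Iars, second box: gcacacgctgATTGGgcgccgcgga

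The next sequences are shown because these promoters carry 2 or more boxes, as Iars does, and have no NF-Y-ChIP summit. They lie at chr9:108507974-108507998 and chr9:108508003-108508027 (Qars, plus strand), chr15:11399699-11399764 (Tars, minus strand), chr12:108894176-108894239 (Wars, minus strand), chr8:111033785-111033809, chr8:111033802-111033826 and chr8:111033859-111033883 (Aars, plus strand), chr7:28741826-28741987 (Sars2, plus strand), and chr3:95754919-95754943 and chr3:95754888-95754912 (Tars2, minus strand).
Qars, box 1: gaaggccaccATTGGttctcttcaa
Qars, box 2: tcgtactcctATTGGtcaatgagca
Tars: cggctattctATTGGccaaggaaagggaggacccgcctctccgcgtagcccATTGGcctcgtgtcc
Wars: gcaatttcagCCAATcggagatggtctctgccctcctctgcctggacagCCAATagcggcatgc
Aars, box 1: gctccgaatgATTGGcatgccagtg
Aars, box 2: tgccagtggaCCAATcatatcagag
Aars, box 3: gagcgctctgATTGGatggtgaggt
Sars2: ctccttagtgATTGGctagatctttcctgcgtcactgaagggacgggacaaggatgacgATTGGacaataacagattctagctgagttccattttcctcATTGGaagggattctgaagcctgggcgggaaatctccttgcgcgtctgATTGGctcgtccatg
Tars2, box 1: gctatgttatCCAATaggaaaggat
Tars2, box 2: gacttagaagCCAATgaggagcctg

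The Iars gene spans positions 49682100 to 49734267 of chromosome 13 (plus strand) and has 9 annotated TSSs. Its NF-Y-ChIP peak, chr13:49681904-49682299, was 396 bp wide, against a median of 224 bp over all 733 peaks. The summit lay at 49682089, in intergenic sequence at -11 bp from the first TSS. Fold enrichment, the signal at the summit over the local background as the peak caller gives it, was 39.1, which ranked 3 of 733. The median of all NF-Y-ChIP peaks was 6.75 and their range 1.46 to 53.1, so the Iars peak was 5.78 times the median peak. Its −log10 p was 111 and its −log10 q was 104.

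The sequence under the summit held 2 CCAAT boxes within 50 bp, in opposite orientations and with their centres 46 bp apart, and the centre of the nearer was 10 bp from the summit. A CCAAT box within 50 bp of the summit was common to 645 of the 731 other NF-Y-ChIP peaks on the nuclear chromosomes (88.2%). Iars was among the 274 peaks with 2 boxes within 100 bp of the summit. Their median fold enrichment was 6.91 (95% interval 6.70 to 7.52) and their highest 53.1. Whether the number of boxes bears on the height of the Iars peak was not tested. The H3K4me3-ChIP peak over the same start, chr13:49681384-49682998, had a fold enrichment of 72.9 and spanned the whole NF-Y-ChIP peak. The summits of the 2 marks were 189 bp apart, with that of H3K4me3 downstream, and no other annotated gene started within 1 kb of the NF-Y-ChIP summit.

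**Figure D1:**
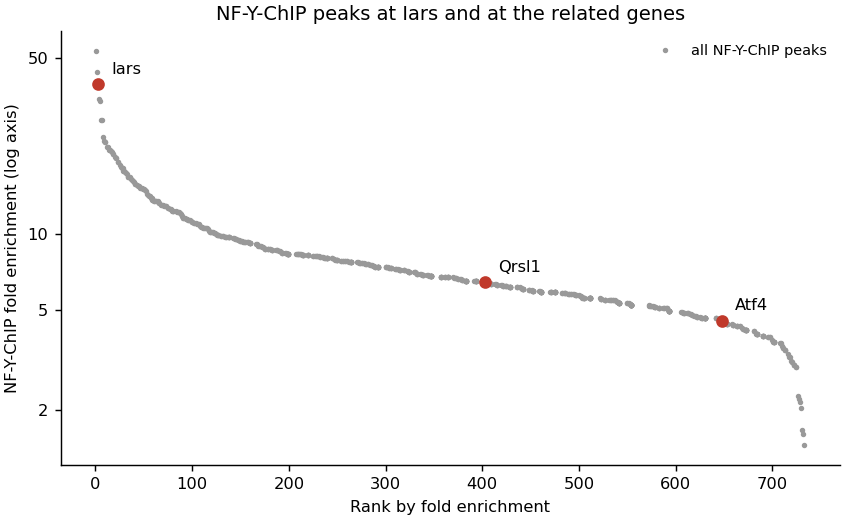
NF-Y-ChIP fold enrichment (log axis) of all 733 peaks against their rank, with the peaks at Iars, Qrsl1 and Atf4 in red. Iars sits at rank 3 with 39.1, Qrsl1 at rank 403 with 6.43 and Atf4 at rank 648 with 4.51.

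Counted by compartment, 1 of the 19 cytosolic genes had a promoter summit (5.26%, Wilson 95% interval 0.935 to 24.6%) and 0 of the 16 mitochondrial genes had one (interval 0 to 19.4%). Over all protein-coding genes the share was 3.17%, and over those with an H3K4me3-ChIP peak at the start it was 5.03%. The share of 2.86% over the 35 members (interval 0.506 to 14.5%) was close to that background, so the count is no result about the members as a group. The intervals cover the number of genes only. When a peak anywhere inside the gene or up to 5 kb upstream was counted, Iars was again the only member. The nearest NF-Y-ChIP summit to any other member lay 15.9 kb from a TSS of Cars, the cytosolic cysteinyl-tRNA synthetase gene, with a fold enrichment of 4.81, and the next 25.7 kb from Hars. For the 34 members without a summit the median distance was 660 kb and the longest, for Rars2, 6701 kb. Iars2, which encodes the mitochondrial enzyme for the same amino acid as Iars, had its nearest summit 3446 kb away.

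H3K4me3-ChIP peaks reached to within 1 kb of the TSS at 35 of 35 members, against 62.7% of all protein-coding genes. Peaks of the stronger 50% of the H3K4me3-ChIP list lay at 33 of the 35. The exceptions were Pars2 and Tars2, the mitochondrial prolyl- and threonyl-tRNA synthetase genes. Over all protein-coding genes the share was 45.1%, which also counts genes without any peak. Of the 13767 genes with a peak, 9898 had one of the stronger 50%. The median fold enrichment was 45.3 in the cytosolic set (95% interval 39.4 to 64.1, range 30.9 to 79.6, n = 19) and 47.5 in the mitochondrial set (33.6 to 53.9, range 22.6 to 67.1, n = 16). The 2 intervals overlap from 39.4 to 53.9. Among the 13767 marked genes, those with such a peak, the median was 39.9 (39.4 to 40.3), and 14 of 19 cytosolic and 11 of 16 mitochondrial members lay above it.

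**Figure D2:**
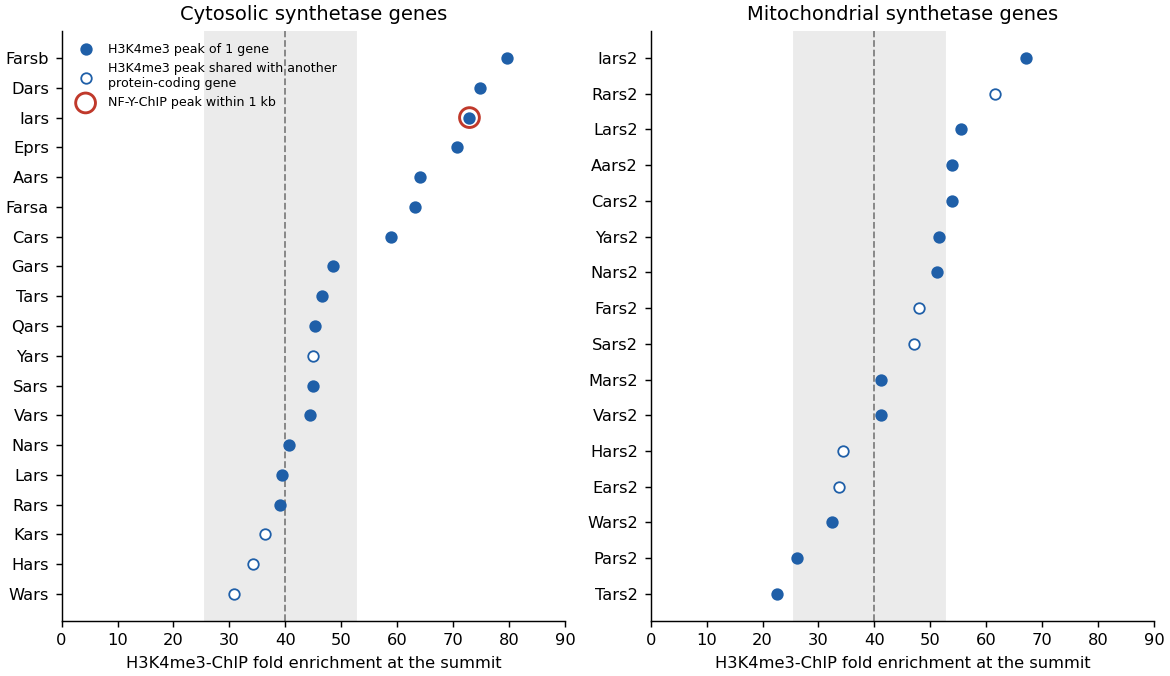
H3K4me3-ChIP fold enrichment at the summit of each member's strongest peak, cytosolic genes on the left and mitochondrial genes on the right. The dashed line is the median of marked protein-coding genes (39.9) and the grey band their middle 50% (25.7 to 52.7); open points share their peak with another protein-coding gene, and the red ring marks Iars as the only member with an NF-Y-ChIP peak.

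In the cytosolic set, the highest peaks were at Farsb (79.6), the beta subunit of the phenylalanine enzyme, Dars (74.8), which charges aspartate, and Iars (72.9). Eprs followed with 70.7, and these 4 genes stood above all mitochondrial members. Below them came Aars for alanine (64.1), Farsa, the alpha subunit of the phenylalanine enzyme (63.1), and Cars for cysteine (58.8). A gap then separated these from Gars for glycine (48.5), Tars for threonine (46.6), Qars for glutamine (45.3), Sars for serine (45.0), Yars for tyrosine (45.0) and Vars for valine (44.4). Nars for asparagine had 40.7, Lars for leucine 39.4 and Rars for arginine 39.0, next to the median of marked genes. The lowest were Kars for lysine (36.4), Hars for histidine (34.3) and Wars for tryptophan (30.9). The enzymes that join the multi-synthetase complex of the cytosol did not group together in this order, since Dars, Iars and Eprs were near the top, Qars was in the middle and Lars, Rars and Kars were near the bottom. Without replicate libraries, neighbours in this order cannot be told apart.

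In the mitochondrial set, Iars2 was highest (67.1), followed by Rars2 (61.6) and Lars2 (55.4). Aars2 (53.9), Cars2 (53.8), Yars2 (51.5) and Nars2 (51.2) came next, within a narrow range. Fars2 (48.0), Sars2 (47.0), Mars2 for methionine (41.2) and Vars2 (41.1) were also above the median of marked genes. Hars2 (34.3), Ears2 (33.6), Wars2 (32.4), Pars2 (26.2) and Tars2 (22.6) were below it. The range was 22.6 to 67.1 in this set and 30.9 to 79.6 in the cytosolic set, with medians of 47.5 and 45.3. Ranges of single genes do not measure how far medians can differ, so no conclusion is drawn from them.

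For 15 amino acids, in 16 pairs with Eprs and Fars2 used more than once, a cytosolic gene could be set beside its mitochondrial counterpart. The cytosolic gene had the higher fold enrichment in 9 pairs and the mitochondrial gene in 6, and the median ratio was 1.08. Histidine gave equal values because Hars and Hars2 start head to head within 1 H3K4me3-ChIP peak. The pairs that leaned most to the cytosolic gene were Eprs against Pars2 (ratio 2.7), Eprs against Ears2 (2.1), Tars against Tars2 (2.06) and Farsb against Fars2 (1.66). Those that leaned most to the mitochondrial gene were Rars against Rars2 (0.633), Lars against Lars2 (0.711) and Nars against Nars2 (0.795). Iars and Iars2 were nearly equal (ratio 1.09) and each ranked at or near the top of its compartment, although Iars alone had a promoter summit of NF-Y-ChIP. The cytosolic peak was the wider in 12 of the 16 pairs.

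**Figure D3:**
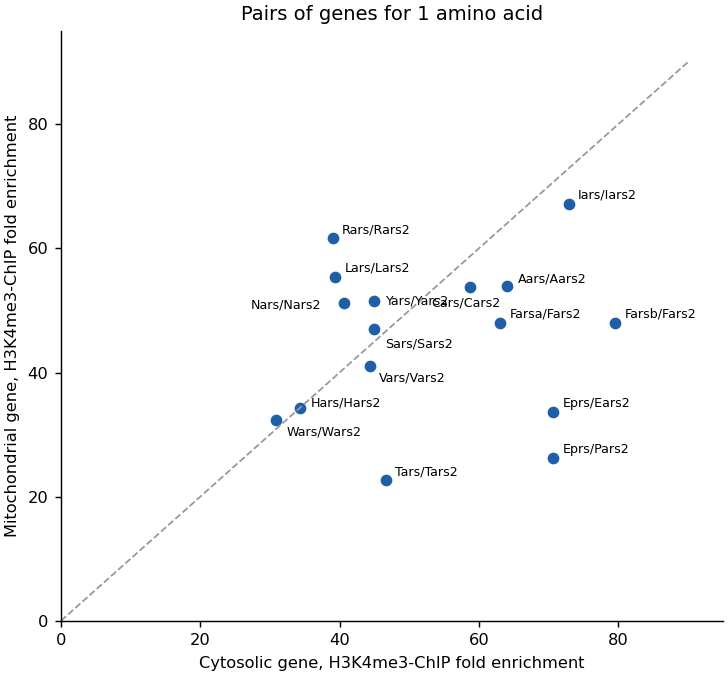
H3K4me3-ChIP fold enrichment of the cytosolic gene (horizontal axis) against that of the mitochondrial gene (vertical axis) for 16 pairs, 1 library; the dashed line marks equal values. The points fall on both sides of the line, with Eprs/Pars2, Eprs/Ears2 and Farsb/Fars2 farthest below it and Rars/Rars2 farthest above.

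The H3K4me3-ChIP peaks of the members had a median width of 1420 bp, close to the 1404 bp of marked genes. It was 1521 bp (95% interval 1244 to 1718) in the cytosolic and 1276 bp (874 to 1745) in the mitochondrial set, and the intervals overlap. The widest peak was at Yars (2390 bp) and the narrowest at Aars2 (592 bp). Distances in each promoter were taken from a reference TSS, the annotated TSS nearest to the summit of the gene's strongest H3K4me3-ChIP peak. The summit was downstream of it at 29 of 35 members (82.9%), against 76.5% of marked genes. It was upstream at Kars (-709 bp from the reference TSS), Yars (-558 bp), Ears2 (-348 bp), Yars2 (-227 bp), Rars2 (-214 bp) and Cars2 (-45 bp).

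Several members shared their start with another gene. Another protein-coding gene started inside the H3K4me3-ChIP peak at 9 of 35 members (25.7%), against 19.2% of marked genes. These were Hars and Hars2 with each other, Kars with Terf2ip, Wars with Wdr25, Yars with S100pbp, Ears2 with Ubfd1, Fars2 with Lyrm4, Rars2 with Orc3 and Sars2 with Mrps12. The genes of each pair ran in opposite directions from the shared start, and the genes overlapped there in Fars2 with Lyrm4 and in Hars with Hars2. Leaving out Fars2 with Lyrm4, the TSSs were between 13 bp (Rars2 and Orc3) and 188 bp (Sars2 and Mrps12) apart. Mrps12 encodes a protein of the mitochondrial ribosome, so that this start serves 2 genes of mitochondrial translation. None of the partner genes had a promoter summit of NF-Y-ChIP. The mark in a shared peak cannot be divided between the 2 genes. Of the members with an upstream summit, Kars, Yars, Ears2 and Rars2 shared their peak, while Yars2 and Cars2 did not. In the shared peaks of Hars, Hars2, Wars, Fars2 and Sars2 the summit lay downstream of the member's reference TSS. Since Hars and Hars2 have 1 peak between them, the shared peaks were 8, with a median width of 1723 bp (95% interval 1377 to 2390), and those of the other 26 members had 1248 bp (1154 to 1615). A wide peak is more apt to hold another TSS, so the widths are not independent of the sharing. The median fold enrichment was 40.7 (30.9 to 61.6) in the shared peaks and 49.8 (41.2 to 58.8) in the others, and these intervals overlap. Without a divergent protein-coding gene upstream of the reference TSS within 1 kb, the summit was downstream of the TSS at 26 of 28 members (92.9%), against 81.5% of such marked genes, and with one at 3 of 7 (42.9%), against 48.1%.

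**Figure D4:**
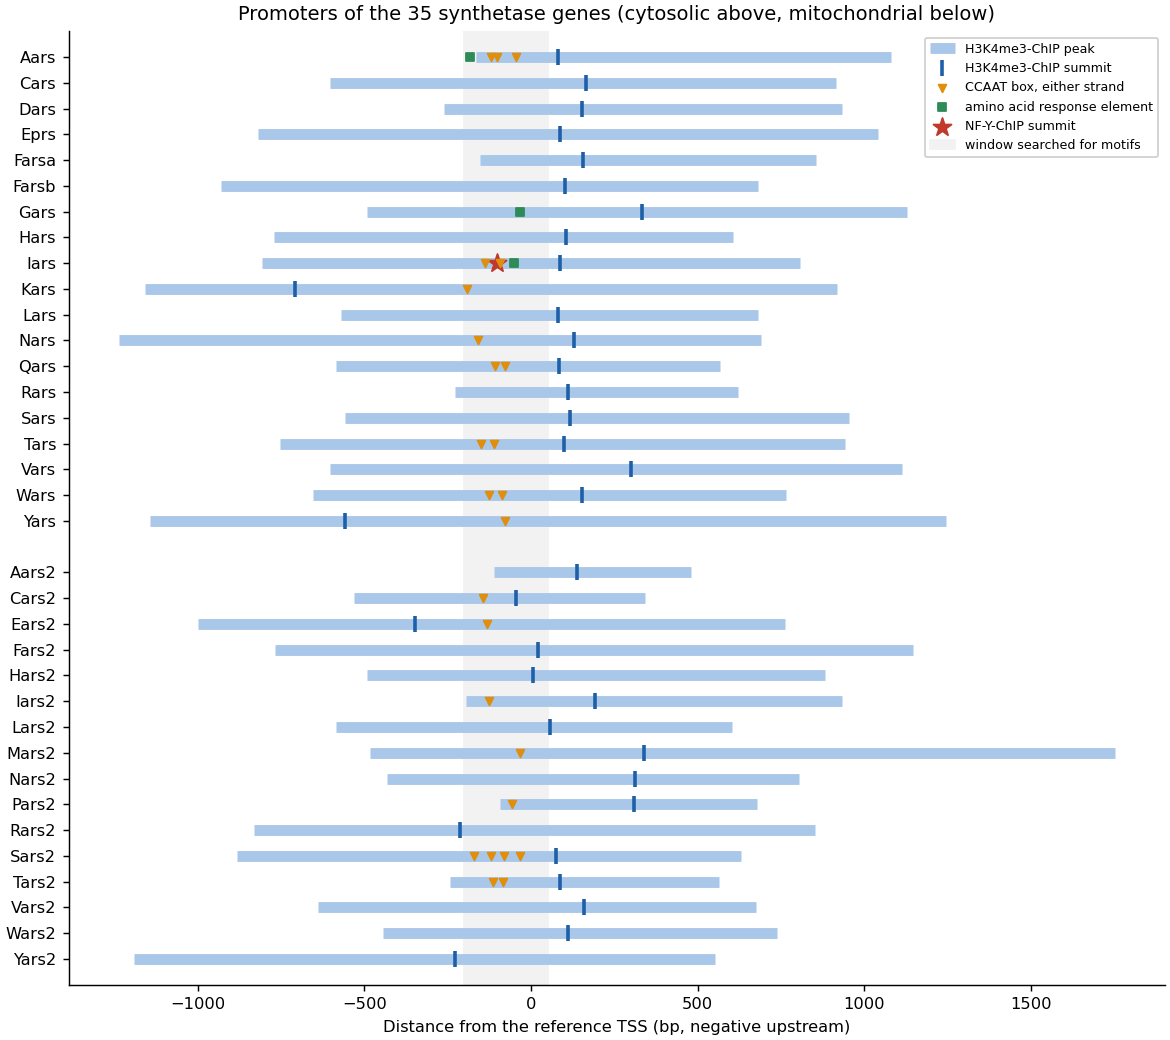
Promoters of the 35 members aligned at the reference TSS (horizontal axis, bp, negative upstream), cytosolic genes above and mitochondrial genes below. Pale bars are H3K4me3-ChIP peaks, dark ticks their summits, orange triangles CCAAT boxes, green squares amino acid response elements and the red star the NF-Y-ChIP summit at Iars; grey is the window searched for motifs.

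CCAAT was searched on both strands from 200 bp upstream to 50 bp downstream of the reference TSS. It was found at 15 of 35 members (42.9%, Wilson 95% interval 28.0 to 59.1%), against 29.0% of marked genes. The cytosolic share, 8 of 19 (42.1%), and the mitochondrial share, 7 of 16 (43.8%), were close to each other at this TSS. With the window set on the 5′ end of each gene they were 5 of 19 (26.3%) and 7 of 16 (43.8%). There were 2 or more boxes at 7 of the 35 (20.0%, interval 10.0 to 35.9%), against 9.76% of marked genes. By compartment this was 5 of 19 cytosolic (26.3%, 11.8 to 48.8%) and 2 of 16 mitochondrial members (12.5%, 3.5 to 36.0%). The stricter consensus of NF-Y, CCAAT preceded by 2 purines and followed by C or G and then a purine, was present at 9 (25.7%, interval 14.2 to 42.1%), against 11.8%. It was present at 6 of 19 cytosolic (31.6%, 15.4 to 54.0%) and 3 of 16 mitochondrial members (18.8%, 6.59 to 43.0%). For both stricter counts the intervals of the compartments overlap. The background lay inside the members' interval for any CCAAT and below it for these stricter counts, but this rested on the choice of TSS. At the 5′ end of the gene, CCAAT was found at 12 of 35 members (34.3%) against 34.6% of marked genes, 2 or more boxes at 4 (11.4%) against 12.0%, and the stricter consensus at 5 (14.3%) against 13.7%, so that the shares of members were near the background. The members' promoter windows were also lower in GC, with a median of 61.0% against 65.7% in marked genes, and its part in the counts of boxes was not tested.

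The 25 boxes of the members were centred between -192 and -33 bp from the reference TSS, with a median of -110 bp, and none was downstream. A lone box was found at Kars, Nars, Yars, Cars2, Ears2, Iars2, Mars2 and Pars2. Pairs were found at Iars, Qars, Tars, Wars and Tars2, with centres 46, 29, 41, 39 and 31 bp apart. Aars had 3 boxes at intervals of 17 and 57 bp, and Sars2 had 4 at intervals of 49, 40 and 48 bp. In all marked promoters with exactly 2 boxes, the median interval was 37 bp where NF-Y was present (n = 181) and 42 bp where it was not (n = 760), and the intervals at Qars, Tars, Wars and Tars2, all without a summit, lay between 29 and 41 bp.

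Over all marked promoters, the share with an NF-Y-ChIP summit was 1.91% without a box, 6.64% with 1 box, 19.2% with 2 and 36.8% with 3 or more. Even in the last class most promoters had no summit. Of the members, 20 had no box, 8 had 1, 5 had 2 and 2 had 3 or more, and the sole summit, that of Iars, was in the class with 2. The absence of a summit at Aars and Sars2, with the most boxes of the list, was therefore shared with most promoters of their class. The members with a box had a median H3K4me3-ChIP fold enrichment of 45.0 (95% interval 33.6 to 53.8, n = 15) and those without a box 49.8 (41.1 to 58.8, n = 20), and these intervals overlap.

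**Figure D5:**
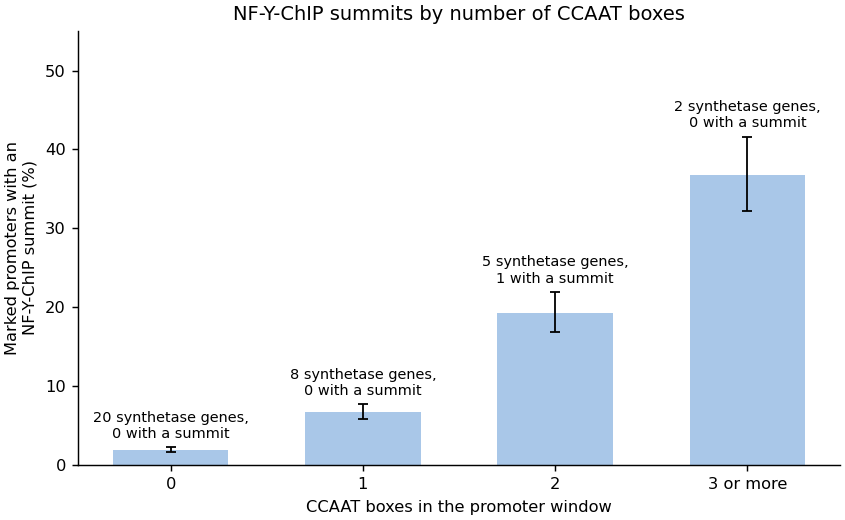
Share of marked protein-coding promoters with an NF-Y-ChIP summit (vertical axis, %) by the number of CCAAT boxes in the promoter window; error bars are Wilson 95% intervals. The share rises from 1.91% to 36.8%, and the text over each bar counts the synthetase genes in that class, where the only summit is that of Iars.

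The amino acid response element was searched as TGATGNAAT on both strands of the same window. It was found at 3 of the 19 cytosolic members, Aars, Gars and Iars (15.8%, Wilson 95% interval 5.52 to 37.6%), and at 0 of the 16 mitochondrial members. Of the marked promoters, 31 had it (0.225%), so these 3 genes were among few marked promoters with this exact match. It was found at 0 of 12 genes of the amino acid response outside the list, such as Asns and Ddit3. A window without the exact match is therefore no evidence that a promoter lacks a working element. The matches were centred at -33 bp (Gars) and -51 bp (Iars) from the reference TSS, that of Aars lay farther upstream, and none of the 3 overlapped a CCAAT box. The match at Aars was not found when the window was set on the 5′ end of the gene. The element lay outside annotated exons at Gars and inside an exon of a transcript with an earlier start at Iars and Aars. At Iars and Aars the element and 2 or more CCAAT boxes thus stood in the same window. Of the 31 promoters with the element, 7 also had a CCAAT box and 1, that of Iars, had a promoter summit of NF-Y-ChIP, which with so few promoters cannot be told apart from the shares of 29.0% and 5.03% over all marked genes. The palindrome TTGCGCAA was searched for comparison and was found at 0 members and at 0.218% of marked promoters. A match of letters is no evidence of binding by ATF4, which was not measured. The elements of Iars and Gars, and that of Mars, the cytosolic methionyl-tRNA synthetase gene outside the list, are shown because they share the element with its flanks differing. They lie at chr13:49682126-49682154 (Iars, plus strand), chr6:55037960-55037988 (Gars, plus strand) and chr10:127311639-127311667 (Mars, minus strand), with the element in capitals as its reverse complement.
Iars: cactgtcagtATTGCATCAcctccagacg
Gars: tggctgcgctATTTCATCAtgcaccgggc
Mars: gccggttccgATTGCATCAgcgtgggctc

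Outside the list, 26 genes of related function were read in the same way. They were other synthetase genes, the scaffolds of the multi-synthetase complex, the mitochondrial amidotransferase, selenocysteine charging, tRNA end repair and proofreading, and the amino acid response. All 26 had an H3K4me3-ChIP peak, 10 had CCAAT in the window (38.5%) and 2 had an NF-Y-ChIP summit (7.69%, Wilson 95% interval 2.14 to 24.1%). The shares over marked genes, 29.0% and 5.03%, lay within the intervals of these counts, so they are no result about the related genes as a group. Mars had an H3K4me3-ChIP fold enrichment of 48.5 and no promoter summit of NF-Y-ChIP.

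The genes with a summit were Qrsl1 and Atf4. Qrsl1 encodes the catalytic subunit of the amidotransferase that makes mitochondrial glutaminyl-tRNA. Its peak, chr10:43901716-43901886, had a fold enrichment of 6.43, close to the median of all peaks, and a summit at -42 bp from the nearest TSS of Qrsl1. The divergent gene Rtn4ip1 had a TSS closer to the summit, so the peak cannot be given to either gene. The H3K4me3-ChIP fold enrichment at Qrsl1 was 22.2, below that of all 35 members. The peak at Atf4, chr15:80255004-80255174, had a fold enrichment of 4.51, which ranked 648 of 733, and a summit at -133 bp from the nearest TSS. This was -472 bp from the reference TSS of Atf4, so its boxes lay outside the promoter window, in which Atf4 had 0 boxes. Both peaks held 2 CCAAT boxes, shown here for comparison with those at Iars, at chr10:43901785-43901809 and chr10:43901744-43901768 (Qrsl1, minus strand) and chr15:80255057-80255122 (Atf4, plus strand).
Qrsl1, box 1: ggcgcgcgagCCAATcgtgtgcaga
Qrsl1, box 2: cggaactcgaCCAATccaggcgctc
Atf4: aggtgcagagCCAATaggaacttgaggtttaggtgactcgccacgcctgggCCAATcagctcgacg

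The 3 peaks held paired boxes and differed widely in NF-Y-ChIP fold enrichment, 39.1 at Iars against 6.43 at Qrsl1 and 4.51 at Atf4. H3K4me3-ChIP did not follow the same order, with 72.9 at Iars, 65.1 at Atf4 and 22.2 at Qrsl1.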

How the data were processed

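ChIP-seq of E13.5 mouse cortices gave 3 libraries, input, NF-Y-ChIP and H3K4me3-ChIP. The authors trimmed the reads (Trimmomatic), mapped them on mm10, which is GRCm38, and ran MACS2, with a threshold of p < 0.001 for the NF-Y-ChIP list and of q < 0.05 for the H3K4me3-ChIP list. Bowtie2 2.2.8 and MACS2 2.1.2 are the versions in the submitters' processing notes, and the study names input as the negative control of its ChIP without saying whether peaks were called against it. Fold enrichment, used as deposited, is a ratio that MACS2 computes at each summit against its local background. The deposited −log10 values belong to each peak's p-value and q-value. As score, the authors deposited what the caller writes, 10 times the −log10 p (733 of 733 NF-Y-ChIP peaks) or 10 times the −log10 q (18816 of 18816 H3K4me3-ChIP peaks), rounded down. By this and the stated thresholds each list was matched to its antibody.

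TSSs were the 5′ ends of all GENCODE M21 transcripts, and sequences came from RefSeq GRCm38.p6. A gene was counted for NF-Y when a summit, and for H3K4me3 when any base of a peak, lay within 1000 bp of a TSS, and the strongest such peak was used. Motifs were searched on both strands of a 251 bp window. The 95% intervals are Wilson's for shares and from order statistics for medians. These intervals describe the number of genes or peaks, not the error between libraries. Depth is unknown. The assignment of peaks to genes and the motif search were tested on simulated data. The tools were pysam 0.24.0, pandas 2.3.3, matplotlib 3.10.9, SciPy 1.17.1 and NumPy 2.4.6 under Python 3.11.15. The members and lists were chosen with earlier results of these data known. All 35 members were accounted for; those with an NF-Y-ChIP summit, with CCAAT in the window or with the 3 highest or lowest H3K4me3-ChIP values in each compartment were named in any case, as were related genes with a summit. The alternatives were other distances, TSS sets, peak thresholds, motif windows and consensus, and the list without Gars and Kars.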

Additional observations from a re-analysis of the deposited data

How the results depend on the processing

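Of 71 values recomputed under other settings, for 17 results, 62 stayed near the value given (a count within 1.5 times it, a median of fold enrichment within its interval, a distance unchanged) and 9 counts moved by more. Iars remained the 1 cytosolic member with an NF-Y-ChIP summit, and the mitochondrial count remained 0, under every setting tried for them. The related genes with a summit went from 2 to 0 when the stronger 50% of NF-Y-ChIP peaks was used, and to 1 when a peak was given only to the gene with the nearest TSS. With a window from 100 bp upstream to the TSS, CCAAT was found at 5 cytosolic members in place of 8 and at 4 mitochondrial members in place of 7. With the 5′ end of the gene as the TSS it was found at 5 cytosolic members, without Aars, Nars and Qars, and still at 7 mitochondrial members. There, 2 or more boxes were found at 3 cytosolic members in place of 5 and at 1 mitochondrial member in place of 2, and the stricter consensus at 3 cytosolic members in place of 6 and at 2 mitochondrial members in place of 3. At the reference TSS the stricter consensus was found at 3 mitochondrial members. With the 5′ end of the gene, Tars2 had no H3K4me3-ChIP peak within 1 kb and Aars had no amino acid response element, which left 2 members with the element; the alternatives for this element, and those for the stricter counts of CCAAT, were chosen after seeing the data. The number of NF-Y-ChIP peaks depends on depth, which is unknown. No paired analysis was possible because each antibody has 1 library and no result comes from a test between groups.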
